A study of Peniophora incarnata with 12 samples.

Results

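Gene expression of the white-rot fungus Peniophora incarnata, strain T-7, was compared between growth on poplar wood, a hardwood, and growth on Chinese fir wood, a softwood. The comparison took the 13265 of 16059 genes that reached at least 1 FPKM (fragments per kilobase of gene, scaled to the library's mapped reads) in at least 3 of the 6 libraries from these woods. All cultures were wild type mycelium grown for 30 days at 28 °C and 75% relative humidity, in the dark and without shaking, on wood ground to a powder of about 250 µm as the solid medium. Each wood had 3 libraries, labelled as biological replicates, and the series also held 3 libraries from rice straw and 3 from PDA, the potato dextrose agar control, whose values are given beside some genes. Messenger RNA was selected by its poly(A) tail and sequenced with a strand-marking kit. Hardwood and softwood were each represented by 1 material, so wood class and the particular wood cannot be told apart.

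White-rot fungi are basidiomycetes that break down all polymers of wood, lignin included. They attack lignin with secreted peroxidases and laccases, feed the peroxidases with hydrogen peroxide from oxidases of sugars, alcohols and aldehydes, and open cellulose and hemicelluloses with hydrolases and copper-dependent monooxygenases. Hardwood hemicellulose is mostly acetylated glucuronoxylan and its lignin holds syringyl beside guaiacyl units, whereas softwood is rich in galactoglucomannan, has almost purely guaiacyl lignin and carries resin terpenes.

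The libraries of the 2 woods rested on 23398461 to 31132066 reads each, so 1 read equalled 0.0227 to 0.0302 FPKM where coding sequence measured 1413 bp, the median. Poplar wood libraries spread more than fir wood libraries, with a median SD per gene of 0.471 against 0.195 on the log2(FPKM + 1) scale. Poplar wood replicates 1 and 3 were the least alike of their group, with a correlation across genes of 0.852. That lay below the 0.887 of poplar wood replicate 1 with fir wood replicate 2. Poplar wood replicate 2 correlated with replicates 1 and 3 of its group at 0.920 and 0.946. Each fir wood library was close to a weighted combination of the other 2, with a chi-square of 5.23 to 5.82 per gene where poplar wood libraries gave 161.5 to 228. For fir wood replicate 1 both weights were positive (0.472 and 0.528), whereas replicates 2 and 3 each needed a negative weight (-0.931 and -0.763). Whether fir wood replicate 1 is an independent culture cannot be told from these values, and if it is not, fir wood has 2 independent samples and the p-values below are too small. The 10 most abundant genes took 8.61% to 9.73% of all FPKM on poplar wood and 13.9% to 14.7% on fir wood. The median log2 fold change over all genes was 0.31 toward poplar wood, and median-of-ratios scaling, which moves that median to 0, was therefore run beside the deposited scale. Among 36 tested genes for the cytoskeleton, chitin and glucan synthesis and elongation factor 1-alpha, the mycelium check, actin ACT (A04305) had 55.0, 50.2 and 38 FPKM on poplar wood and 131, 137 and 139 FPKM on fir wood, so it was present in every library. It was lower on poplar wood by -1.50 ± 0.24 (limma, adjusted p = 0.0071). The actin call was lost without fir wood replicate 1 (fold changes of -1.61 to -1.35 over the omissions), and 4 genes of the list were called higher and 2 lower, or 1 and 5 after median-of-ratios scaling.

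**Figure D1:**
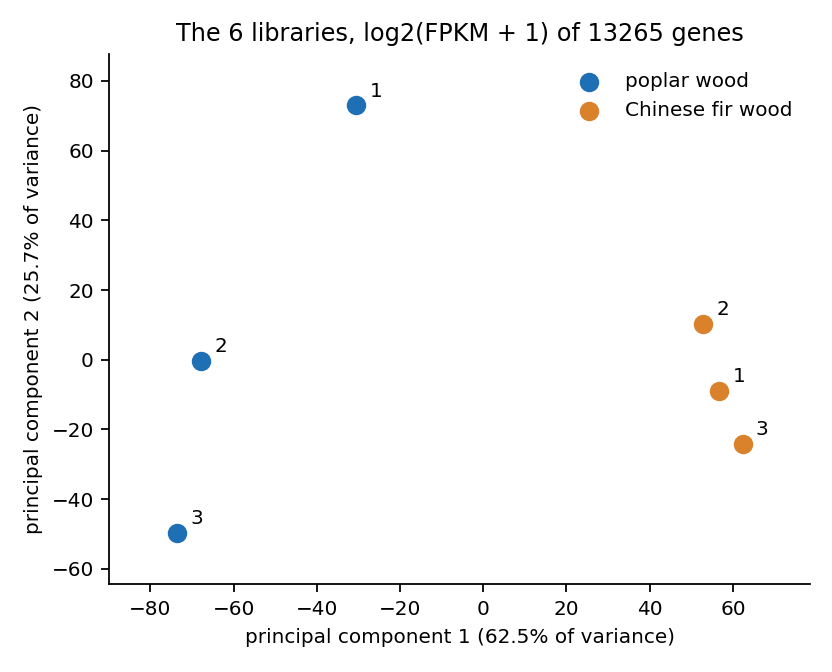
Principal components of the 6 libraries from log2(FPKM + 1) of the 13265 genes, 1 point per library, numbered by replicate. The woods separate along component 1 (62.5% of variance), and poplar wood replicate 1 lies far from poplar wood replicate 3 along component 2 (25.7%).

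Between the woods, 2659 genes were called, or 20.0% of those tested, by limma at a Benjamini-Hochberg adjusted p under 0.05 with a log2 fold change of at least 1. Fold changes here and below are poplar wood minus fir wood on the log2(FPKM + 1) scale, which understates changes of weakly expressed genes, and are followed by their standard error. Of the calls, 1902 (14.3%) were higher on poplar wood and 757 (5.71%) lower. After median-of-ratios scaling the split was 1064 (8.02%) higher and 1293 (9.75%) lower, so which direction held more calls depended on the scale, and 1821 genes (13.7%) were called in the same direction both ways. In bulk RNA, fewer cells of a kind and less RNA per cell cannot be told apart. A call is termed stable below when it held under every scaling tried (TPM, median-of-ratios, quantile) and without each of the 6 libraries in turn: 615 genes (4.64%) were stable, 384 (2.89%) higher and 231 (1.74%) lower on poplar wood. Without fir wood replicate 1 there were 655 calls (4.94%), 415 (3.13%) higher and 240 (1.81%) lower. Without that library and poplar wood replicate 1 there were 3562 (26.9%), 2747 (20.7%) higher and 815 (6.14%) lower. The 3 values of each wood did not overlap for 6013 genes (45.3%), 4298 (32.4%) higher and 1715 (12.9%) lower on poplar wood, and after median-of-ratios scaling for 5709 (43.0%), with 21.5% in each direction. The largest rises and falls named below were picked among calls whose groups did not overlap. For them the separation of the groups is part of the choice and no further evidence. Other named genes were picked by abundance within a list or after their values were seen. Counts of the gene lists below are to be read beside the shares of all genes given here.

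Genes much higher on poplar wood included secondary metabolism enzymes, a protease and enzymes of 1-carbon and vitamin metabolism. Tyrosinase ustQ (A16118), a copper oxidase of phenols named after an Aspergillus peptide toxin cluster, had 33.5, 41.8 and 37.8 FPKM on poplar wood and 0.531, 1.06 and 0.449 FPKM on fir wood. Its 3 poplar wood values lay close together, with a log2 fold change of 4.54 ± 0.25 (limma, adjusted p = 0.00036), while rice straw averaged 42.5 FPKM. Of 9 tested tyrosinases, a group put together after its values were seen, ustQ was the 1 called higher and 2 were lower. The median log2 fold change of that group was -0.14. The dioxygenase cnsP (A15554), named after the Penicillium communesin alkaloid cluster, had 42.9, 57.0 and 59.9 FPKM against 2.25, 0.623 and 1.54 FPKM. Its fold change was 4.50 ± 0.32 (limma, adjusted p = 0.00081), and the second cnsP gene (A15486), of the same coding length, had 3.82 ± 0.27 (limma, adjusted p = 0.00081). Oxidoreductase BOA17 (A09297), named after the botcinic acid cluster of Botrytis, rose from 2.78 to 3.61 FPKM on fir wood to 32.1, 129.9 and 249 FPKM on poplar wood, a change of 4.60 ± 0.66 (limma, adjusted p = 0.0052). The 3 poplar wood values of BOA17 differed among themselves by more than those of ustQ or cnsP, with replicate 1 lowest.

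Formate dehydrogenase FDH1 (A02035), which oxidises formate to carbon dioxide, had 133, 159.6 and 34.1 FPKM on poplar wood and 4.98, 6.89 and 5.55 FPKM on fir wood. Poplar wood replicate 3 was the lowest of its group, and fir wood was the lowest of the 4 media, since rice straw averaged 305 FPKM and PDA 329 FPKM. Its log2 fold change was 3.75 ± 0.55 (limma, adjusted p = 0.0054). A second FDH1 gene (A16047) had 255.6, 176 and 21.5 FPKM against 11.2 to 12.9 FPKM (2.94 ± 0.82, limma, adjusted p = 0.037). Its call was lost after median-of-ratios scaling and without poplar wood replicate 2 or any fir wood library (2.26 to 4.02). For A16047 poplar wood had the highest average, 151 FPKM, as rice straw averaged 51.6 FPKM and PDA 28.5 FPKM. Its replicate 3 nevertheless lay below every rice straw library (32.9 to 65.6 FPKM) and within the PDA range (12.3 to 46.3 FPKM). Thiamine thiazole synthase (A18593), which builds the thiazole ring of vitamin B1, had 242, 243 and 60.2 FPKM on poplar wood and 11.2, 12 and 8.96 FPKM on fir wood. Here too poplar wood replicate 3 was the lowest of its group, and the change was 3.72 ± 0.53 (limma, adjusted p = 0.0051). Sphingolipid C9-methyltransferase MT1 (A05015), which methylates the sphingoid base of fungal glucosylceramides, had 11.1, 42.5 and 49.8 FPKM against 1.07 to 1.34 FPKM, a change of 3.76 ± 0.52 (limma, adjusted p = 0.0047). An acid endopeptidase described as aspergillopepsin-2 (A03170) had 36.6, 112 and 35.0 FPKM against 1.88 to 2.81 FPKM, a change of 4.0 ± 0.45 (limma, adjusted p = 0.0028). Apart from FDH1 A16047, all genes named so far as higher were stable calls. The 2 rds1 genes were not: A05355 had 11.8, 73.0 and 439.9 FPKM on poplar wood against 1.27 to 1.88 FPKM on fir wood, and its call was lost without poplar wood replicate 2 or any 1 fir wood library (fold change 3.57 to 6.12 across the omissions), as was that of A12469 (24.3, 86.0 and 642 FPKM against 3.01 to 4.98 FPKM, 3.26 to 5.59).

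Genes far lower on poplar wood covered metal reduction, sugar phosphate cleavage, aldehyde detoxification and transport. Ferric/cupric reductase frp2 (A07927), a membrane enzyme that reduces iron and copper before uptake, had 1.73, 4.53 and 0.568 FPKM on poplar wood and 194, 93.3 and 285 FPKM on fir wood. Fir wood replicate 2 was the lowest of its group, and the log2 fold change was -5.92 ± 0.55 (limma, adjusted p = 0.0016). The 2 phosphoketolase genes, whose enzyme splits xylulose 5-phosphate into acetyl phosphate and glyceraldehyde 3-phosphate, moved alike. A19231 had 0.638, 2.15 and 1.61 FPKM on poplar wood and 93.4, 51.2 and 129 FPKM on fir wood, a change of -5.18 ± 0.41 (limma, adjusted p = 0.00098), and A18876 changed by -4.89 ± 0.51 (limma, adjusted p = 0.0022). The 2 genes have the same coding length of 2430 bp, and how the counting divided reads of near-identical copies was not stated. The same limit applies to 29% of described genes, 2427 of 8356, which share description and coding length with another gene. Poplar wood was the low medium for them, since rice straw averaged 716 FPKM and PDA 137 FPKM for A19231.

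Lactoylglutathione lyase glo1 (A12164), which removes methylglyoxal, had 141, 49.3 and 26.1 FPKM on poplar wood and 1886, 1768 and 2179 FPKM on fir wood. Fir wood stood out here, as rice straw averaged 176 FPKM and PDA 224 FPKM, and the log2 fold change was -5.07 ± 0.55 (limma, adjusted p = 0.0024). Of 8 tested isp4 genes, members of an oligopeptide transporter family known from fission yeast, 2 were lower and 1 higher on poplar wood, with a median log2 fold change of 0.50. A00196 had 1.53, 2.38 and 0.921 FPKM on poplar wood, 48.4, 45.2 and 81.8 FPKM on fir wood and averages of 4.09 FPKM on rice straw and 3.45 FPKM on PDA, with a change of -4.50 ± 0.34 (limma, adjusted p = 0.00088). A11836 changed by -4.46 ± 0.43 (limma, adjusted p = 0.0017). The higher one (A17447, chosen after its values were seen) had 4.34, 5.46 and 3.12 FPKM against 1.09, 1.5 and 0.947 FPKM (1.27 ± 0.25, limma, adjusted p = 0.013). Its call was lost without fir wood replicates 1 or 3 at 1.11 to 1.44. The phosphatase yvh1 (A05175) had 4.52, 9.58 and 19.7 FPKM against 239.8, 114 and 365 FPKM, a second aspergillopepsin-2 (A01411) had 7.71, 15.4 and 9.71 FPKM against 274, 95.8 and 409 FPKM, and the transporter paaT (A02298), known in Penicillium for carrying phenylacetic acid, had 3.75, 3.25 and 2.61 FPKM against 72.6, 74.2 and 67.9 FPKM. For these 3 genes the changes were -4.34 ± 0.57, -4.27 ± 0.53 and -4.12 ± 0.23 (limma, adjusted p = 0.0042, 0.0037 and 0.00036). Apart from A17447, the calls of frp2, the phosphoketolases, glo1, isp4, yvh1, A01411 and paaT were stable.

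**Figure D2:**
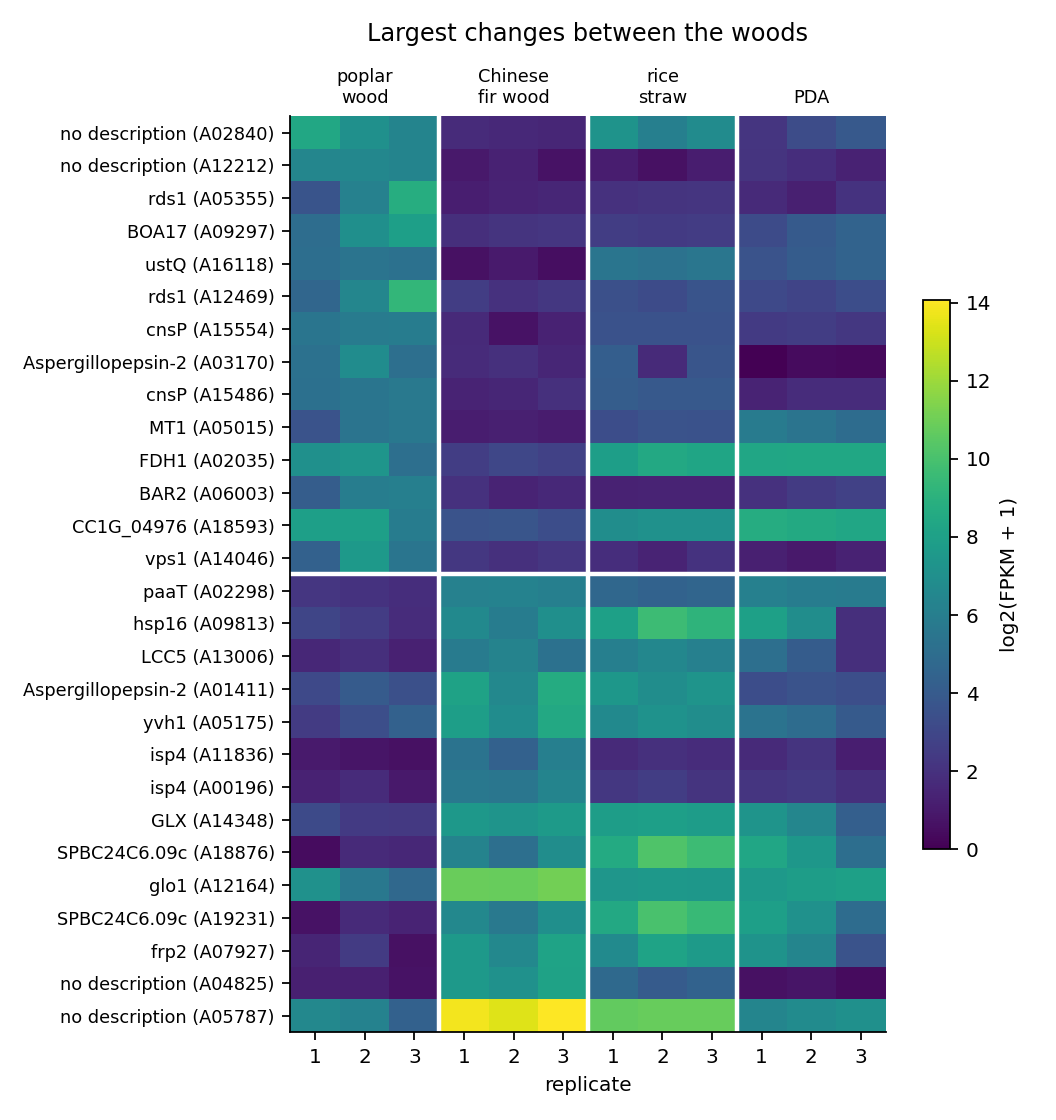
Log2(FPKM + 1) of the 28 genes with the largest changes in each of the 12 libraries, poplar wood and fir wood beside rice straw and PDA, ordered by fold change with genes higher on poplar wood above the white line. The undescribed gene A05787 reached 10601 to 17371 FPKM on fir wood and 20 to 93.7 FPKM on poplar wood, and rice straw sided with fir wood for some genes, such as LCC5, and with poplar wood for others, such as FDH1.

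The lignin-attacking class II peroxidases were called higher on poplar wood in 8 of 21 tested genes and lower in 0. Their median log2 fold change was 1.04, beside 0.31 for all genes, and after median-of-ratios scaling 4 of 21 remained called. Versatile peroxidases oxidise both manganese and aromatic compounds directly. VPL1 (A19457), the most abundant of the list, had 26.6, 320.4 and 67.4 FPKM on poplar wood and 4.99, 6.25 and 7.0 FPKM on fir wood. Poplar wood replicate 2 held by far the highest value, but the lowest poplar wood library still exceeded the highest fir wood library, and the change was 3.59 ± 0.78 (limma, adjusted p = 0.017). VPS1 (A14046) followed the same order over the libraries, with 19.9, 198 and 43.6 FPKM against 2.84 to 3.87 FPKM and a change of 3.68 ± 0.73 (limma, adjusted p = 0.013). The VPL1 call was lost without any 1 of the fir wood libraries (fold changes of 2.63 to 4.40 over the omissions) and the VPS1 call without fir wood replicates 1 or 3 (2.78 to 4.41). The other 6 called genes were described as manganese peroxidase 3, which oxidises manganese that then diffuses into the wood, out of 17 tested genes of that description whose fold changes ran from -0.42 to 3.47. None of these peroxidase calls was stable: without fir wood replicate 1 there were 0, and without that library and poplar wood replicate 1 together there were 7, all higher. Rice straw averaged 2.54 FPKM for VPL1 and PDA 1.0 FPKM.

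Laccases are copper enzymes that oxidise phenols with oxygen. Of 24 tested laccases and multicopper oxidases, 7 were called lower on poplar wood and 1 higher, the same counts as after median-of-ratios scaling, and 6 of the lower calls and the higher one were stable. The other 16 were not called, and the median log2 fold change was -0.46. Summed FPKM of the list overlapped between the woods, at 3163, 1102 and 654 on poplar wood and 1913, 2395 and 1549 on fir wood. Laccase-5 LCC5 (A13006) had 1.95, 2.79 and 1.48 FPKM on poplar wood and 57.3, 77.0 and 37.8 FPKM on fir wood, a change of -4.21 ± 0.33 (limma, adjusted p = 0.00098). A second LCC5 gene (A14336, chosen after its values were seen) had 3.11, 3.38 and 1.91 FPKM against 48.5, 49.4 and 58.8 FPKM, a change of -3.82 ± 0.26 (limma, adjusted p = 0.00081). The poplar wood values of both LCC5 genes lay below the PDA averages of 17.9 and 8.08 FPKM. For A13006 the PDA libraries spread widely, at 34.9, 16.2 and 2.73 FPKM, and the lowest of them overlapped poplar wood. The higher call was an LCC4 gene (A01844) with 4.77, 3.93 and 3.74 FPKM against 0.22 to 1.27 FPKM, a change of 1.67 ± 0.27 (limma, adjusted p = 0.0076). Another LCC4 gene (A17335), the most abundant called lower, had 94.1, 70.1 and 57.1 FPKM against 162, 156 and 178 FPKM (-1.18 ± 0.26, limma, adjusted p = 0.018), and its call was lost without poplar wood replicate 2 or any 1 fir wood library, with fold changes of -1.37 to -1.01. The most abundant laccase over the 6 libraries, LCC2 (A15469), had 946, 191 and 188 FPKM on poplar wood and 359, 445 and 297 FPKM on fir wood. Its groups overlapped because of poplar wood replicate 1, and it was not called (-0.16 ± 0.61, limma, adjusted p = 0.87).

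Among 11 tested copper radical oxidases described as aldehyde oxidase GLOX, which turn aldehydes such as glyoxal into acids and hydrogen peroxide, 2 were lower and 1 higher on poplar wood, all 3 stable, with a list median of 0.46. GLX A14348 had 7.99, 4.29 and 4.13 FPKM on poplar wood and 181, 157 and 203 FPKM on fir wood (-4.85 ± 0.29, limma, adjusted p = 0.00053), and GLX A07605 had 19.1, 10.2 and 8.62 FPKM against 200.3, 169.7 and 222 FPKM (-3.93 ± 0.33, limma, adjusted p = 0.0010). The opposite case, GLX A15861, had 19.2, 14.6 and 10.8 FPKM against 2.41, 3.43 and 2.79 FPKM (2.01 ± 0.28, limma, adjusted p = 0.0048). Of 17 tested flavin-dependent (GMC) oxidoreductases, 4 were higher and 1 lower, or 2 and 2 after median-of-ratios scaling and 2 and 1 without fir wood replicate 1. Pyranose dehydrogenase pdh1 (A17479), which oxidises sugars, had 17.6, 32.3 and 25.5 FPKM on poplar wood and 3.63 to 4.18 FPKM on fir wood (2.39 ± 0.28, limma, adjusted p = 0.0032). The lower one, a GMC oxidoreductase (A08005), had 119, 70.8 and 53.6 FPKM against 678, 327 and 1001 FPKM (-2.96 ± 0.47, limma, adjusted p = 0.0068), and both calls were stable. Alcohol oxidase AOD1 (A10974, chosen after its values were seen), whose enzyme oxidises methanol, had 1.28, 25.1 and 22.5 FPKM on poplar wood and 0.654, 0.56 and 0.914 FPKM on fir wood. Poplar wood replicate 1 lay just above fir wood, and the gene was not called (2.72 ± 0.85, limma, adjusted p = 0.054), with averages of 296 FPKM on rice straw and 162 FPKM on PDA.

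Of 6 tested polysaccharide monooxygenases, which open crystalline cellulose by oxidation, 3 were called higher on poplar wood and 0 lower, or 2 and 0 after median-of-ratios scaling, with a list median of 1.10, 2 of the calls were stable, and all 3 were also called without fir wood replicate 1 and poplar wood replicate 1. The most abundant, Cel61a (A16833), had 358, 445 and 239.8 FPKM on poplar wood and 81.7, 81.0 and 81.7 FPKM on fir wood. The fir wood values were nearly equal and all lay below poplar wood, a change of 2.04 ± 0.28 (limma, adjusted p = 0.0047), with 119.7 FPKM on average on rice straw and 106 FPKM on PDA. A second Cel61a (A00617, chosen after its values were seen) changed by 2.29 ± 0.28 (limma, adjusted p = 0.0037). Of 13 tested cellulases 1 was higher, the stable call of endoglucanase Eg5A (A04206), which cuts within cellulose chains and had 20.1, 35.4 and 33.8 FPKM against 6.64, 8.01 and 6.80 FPKM (1.88 ± 0.29, limma, adjusted p = 0.0062). Their median of 0.31 equalled that of all genes. Of 12 beta-glucosidases, which release glucose from short chains, 1 was called higher as deposited and 0 after median-of-ratios scaling, that of bglL (A13729, 3.53 to 6.80 FPKM against 1.62 to 2.26 FPKM, 1.10 ± 0.27, limma, adjusted p = 0.026). It was lost without poplar wood replicate 2 or any 1 fir wood library, with fold changes of 0.95 to 1.34.

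The mannan-degrading list, which acts on the main hemicellulose of softwood, held 11 tested genes, of which 2 were lower on poplar wood and 0 higher, or 1 and 0 without fir wood replicate 1. Beta-mannosidase mndA (A14227), which removes terminal mannose, had 48.0, 34.6 and 31.1 FPKM on poplar wood and 141, 147 and 142 FPKM on fir wood, a stable call of -1.92 ± 0.25 (limma, adjusted p = 0.0040). The high values of mndA were not particular to fir wood, since rice straw averaged 124 FPKM, while PDA, at 40.6 FPKM, was near poplar wood. The endo-mannanase manA (A16049), which cuts inside the chain, was among the most abundant genes in both woods, with 7694, 4034 and 1893 FPKM on poplar wood and 1985, 2527 and 1591 FPKM on fir wood. Its groups overlapped, the change of 0.96 ± 0.50 was not called (limma, adjusted p = 0.19), and rice straw averaged 1174 FPKM and PDA 491 FPKM.

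Xylan-degrading enzymes and their esterases, 34 tested genes with a median of 0.23, had 7 calls higher and 3 lower on poplar wood, or 5 and 5 after median-of-ratios scaling, so their balance depended on the scale, and 3 and 2 without fir wood replicate 1. Feruloyl esterase faeB-1 (A12649), which frees ferulic acid from cell wall polysaccharides, had 142, 66.1 and 44.7 FPKM on poplar wood and 6.46, 6.22 and 6.96 FPKM on fir wood. Poplar wood replicate 1 was the highest, and the change was 3.33 ± 0.41 (limma, adjusted p = 0.0036). The endo-xylanase xynA (A19399, chosen after its values were seen) had 51.3, 122 and 44.7 FPKM against 7.19, 12.9 and 5.30 FPKM (2.89 ± 0.46, limma, adjusted p = 0.0068), with 98.5 FPKM on average on rice straw. A xylanase of another family, Xyn30A (A02045), was the most abundant of the list and went the other way, with 60.8, 49.3 and 56.8 FPKM on poplar wood and 285, 278 and 281 FPKM on fir wood (-2.32 ± 0.22, limma, adjusted p = 0.0017). Rice straw at 55.2 FPKM and PDA at 38.6 FPKM were near poplar wood, so fir wood was the high medium for Xyn30A. These 3 calls were stable.

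Among 42 tested pectin-degrading enzymes with a median of 0.34, 7 were higher and 1 lower on poplar wood. After median-of-ratios scaling, as well as without fir wood replicate 1, the counts were 3 and 1, and 3 higher and 1 lower were stable. Of all genes 14.3% were higher, or 8.02% after scaling, so the share of higher calls was near the background on both scales. Exopolygalacturonase PGX1 (A09957), which trims the pectin backbone from its end, had 191, 97.3 and 105 FPKM on poplar wood and 16.5, 18.3 and 15.6 FPKM on fir wood (2.83 ± 0.31, limma, adjusted p = 0.0025). Pectate lyase plyA (A10874, chosen after its values were seen) had 39.9, 22.8 and 37.2 FPKM against 1.46, 1.95 and 2.25 FPKM (3.54 ± 0.29, limma, adjusted p = 0.0010). The lower one was pectinesterase pme1 (A07668), which strips methyl groups from pectin and had 3.97, 4.10 and 3.20 FPKM on poplar wood against 27.0, 22.8 and 28.6 FPKM on fir wood (-2.51 ± 0.24, limma, adjusted p = 0.0017). For PGX1 the rice straw average of 82.3 FPKM was nearer poplar wood and the PDA average of 9.58 FPKM nearer fir wood.

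**Figure D3:**
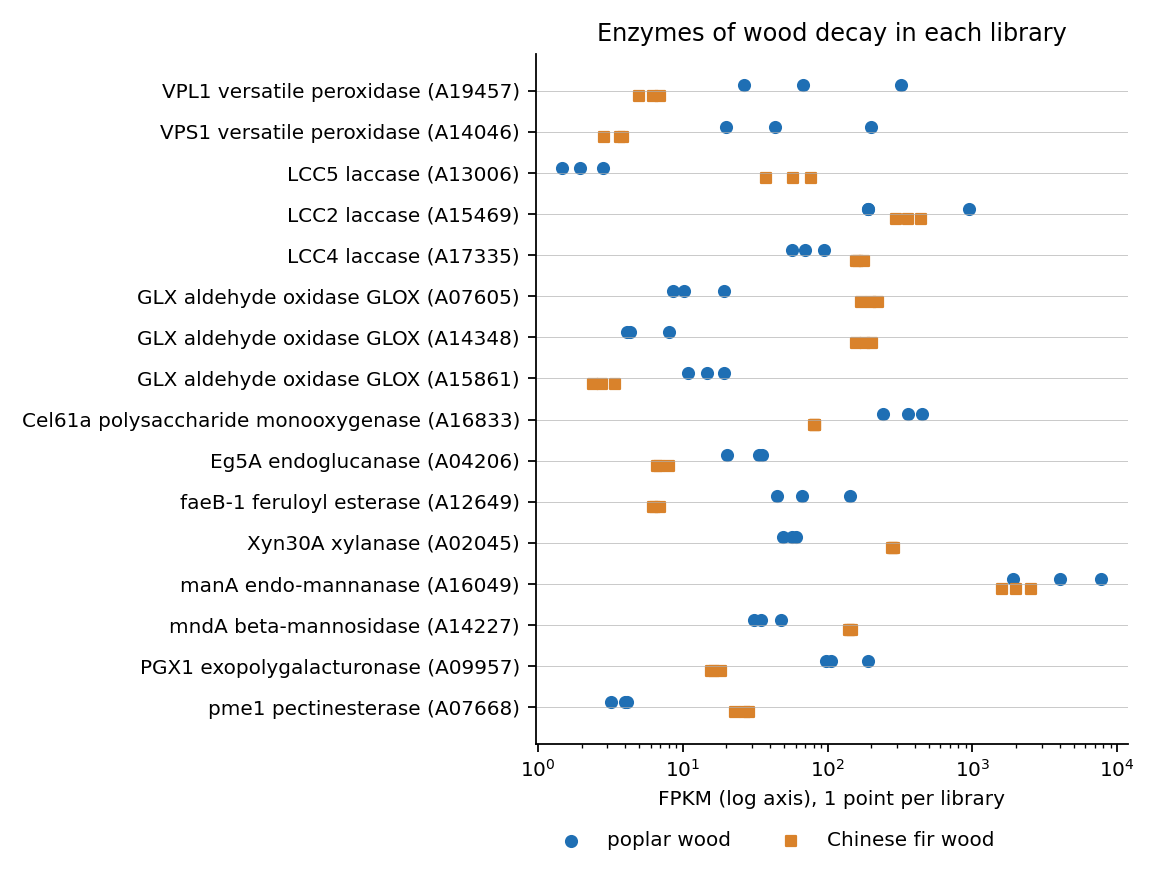
FPKM (log axis) of 16 wood decay enzymes in the 3 poplar wood libraries (circles) and the 3 fir wood libraries (squares). VPL1, Cel61a, faeB-1 and PGX1 lay higher on poplar wood in every library, LCC5, GLX A14348, Xyn30A and mndA higher on fir wood in every library, and manA and LCC2 A15469 overlapped.

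Lists for storage glucans, sugar uptake and catabolism changed in single members. Of 23 tested sugar transporters 5 were higher and 1 lower, or 1 and 1 without fir wood replicate 1. The glucose transporter mfs1 (A04975) had 191, 303 and 284 FPKM on poplar wood and 83.3, 85.4 and 88.2 FPKM on fir wood (1.56 ± 0.26, limma, adjusted p = 0.0080). The mfs1 call was lost without fir wood replicate 1 (fold changes of 1.43 to 1.77 over the omissions). The lactose permease LAC12 (A12161), a sugar-proton carrier, was the lower one and stable, with 58.7, 95.7 and 39.5 FPKM against 492, 438 and 549 FPKM (-3.0 ± 0.34, limma, adjusted p = 0.0029). In the starch and trehalose list, 23 genes with 3 higher and 2 lower, or 0 and 1 without fir wood replicate 1, trehalose phosphorylase TP (A06107) had 72.8, 84.4 and 86.2 FPKM on poplar wood and 259, 199.6 and 316 FPKM on fir wood (-1.64 ± 0.26, limma, adjusted p = 0.0068). The TP call was lost without fir wood replicate 1 at -1.81 to -1.48. Of 22 genes for xylose, mannose and galactose use, 2 were higher and 2 lower, and 21 genes for xyloglucan and galactosides held 1 call, higher, while 15 aryl-alcohol dehydrogenases, 3 cellobiose dehydrogenase and quinone reductase genes and the 1 dye-decolorizing peroxidase held 0.

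Genes that handle small aromatic and resin compounds were called in both directions. Of 148 tested cytochrome P450s, monooxygenases that in white-rot fungi hydroxylate lignin fragments and terpenes, 17 were higher and 20 lower on poplar wood, or 9 and 28 after median-of-ratios scaling, with a median of 0.04. Without fir wood replicate 1 the counts were 5 and 5. FG08079 (A03184) had 188, 243 and 97.8 FPKM on poplar wood and 26.0, 34.3 and 19.1 FPKM on fir wood, with an average of 2.0 FPKM on rice straw (2.63 ± 0.39, limma, adjusted p = 0.0056). CYP5150L8 (A13939, chosen after its values were seen), described as the ganoderic acid synthetase of a triterpene pathway in Ganoderma, had 5.73, 8.51 and 6.36 FPKM against 56.3, 53.8 and 58.3 FPKM (-2.88 ± 0.24, limma, adjusted p = 0.0011), and both of these calls were stable. The most abundant lower P450, CYP208 (A07914), had 917, 1308 and 579 FPKM against 2317, 2711 and 1908 FPKM (-1.37 ± 0.35, limma, adjusted p = 0.028). The CYP208 call was lost without any 1 of the fir wood libraries, with fold changes of -1.65 to -1.06. Of 26 glutathione transferases, which conjugate toxic compounds, 2 were higher and 4 lower, or 0 and 7 after scaling and 0 and 0 without fir wood replicate 1, and none of these calls was stable.

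Of 51 ABC and drug efflux transporters 10 were higher on poplar wood and 0 lower, beside 14.3% of all genes higher, so the share was near the background. There were 7 and 0 after median-of-ratios scaling (8.02% of all genes higher), 12 and 0 without fir wood replicate 1 and poplar wood replicate 1 (20.7%), and 3 and 0 without fir wood replicate 1 alone (3.13%). The list median was 0.50. The most abundant (A08368, an uncharacterised ATP-binding protein) had 193, 429 and 479 FPKM against 82.3, 88.1 and 65.5 FPKM (2.12 ± 0.38, limma, adjusted p = 0.0094). The A08368 call was lost without fir wood replicate 3 at 1.87 to 2.52. Both stable calls, chosen after their values were seen, were neighbours by gene number described as fer6, A07660 with 31.1, 32.3 and 32.8 FPKM against 5.53, 4.96 and 6.33 FPKM (2.33 ± 0.23, limma, adjusted p = 0.0018) and A07659 with 1.83 ± 0.22 (limma, adjusted p = 0.0034). Both woods gave tight values for these 2 genes, poplar wood replicate 1 included. The transcription factor atrR, which controls ABC transporter genes in Aspergillus, was higher in both of its copies chosen after their values were seen (A17944, 23.7, 39.2 and 35.5 FPKM against 6.13, 5.16 and 7.33 FPKM, 2.21 ± 0.28, limma, adjusted p = 0.0039; A08869, 1.90 ± 0.27, limma, adjusted p = 0.0052).

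Of 39 tested nitrogen and peptide carriers 9 were lower on poplar wood and 2 higher, or 12 and 1 after median-of-ratios scaling, with a median of -0.24, and 4 and 1 were stable, the counts also found without fir wood replicate 1. Their summed FPKM overlapped between the woods, at 3645, 2933 and 2319 on poplar wood and 2462, 2246 and 2623 on fir wood. The 2 ammonium transporter amt1 genes (chosen after their values were seen) had stable calls, A04971 with 9.96, 14.2 and 17.9 FPKM on poplar wood and 87.0, 48.0 and 118 FPKM on fir wood (-2.45 ± 0.38, limma, adjusted p = 0.0065), and A11682 with -2.27 ± 0.38 (limma, adjusted p = 0.0079). For A04971 rice straw averaged 47.3 FPKM and PDA 78.4 FPKM, so poplar wood was the low medium. One dicarboxylic amino acid permease DIP5 (A10815) went up, with 47.9, 129.7 and 127 FPKM against 15.7, 16.5 and 14.2 FPKM (2.51 ± 0.40, limma, adjusted p = 0.0071), also stable. Of 30 genes for iron and copper uptake, 2 were higher and 3 lower, or 2 and 5 after scaling. The counts without fir wood replicate 1 were 1 and 2. Beside frp2, the siderophore iron transporter mfs1 (A13988) was called, with 27.2, 38.3 and 67.8 FPKM on poplar wood and 5.4, 4.16 and 3.0 FPKM on fir wood (3.06 ± 0.37, limma, adjusted p = 0.0036). The GATA factor sreA (A08176), which represses iron uptake genes in Aspergillus, had 293, 281 and 294 FPKM against 728, 638 and 896 FPKM (-1.36 ± 0.24, limma, adjusted p = 0.0091). The sreA call was lost without fir wood replicates 1 or 3 at fold changes of -1.48 to -1.23.

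Of 80 tested ribosome biogenesis genes, whose products process and assemble ribosomal RNA in the nucleolus, 65 were called higher on poplar wood and 0 lower. Their median log2 fold change was 1.91, and 75 had groups that did not overlap in that direction, beside 32.4% of all genes. After median-of-ratios scaling the count was 60 and the median 1.57, without fir wood replicate 1 and poplar wood replicate 1 it was 76, without fir wood replicate 1 alone it was 22, and 22 calls were stable, all higher. The most abundant, nop56 (A18360), a core protein of the RNA-methylating nucleolar particles, had 489.9, 673 and 746 FPKM on poplar wood and 150.0, 168 and 129 FPKM on fir wood (2.07 ± 0.26, limma, adjusted p = 0.0039). Rice straw averaged 98.6 FPKM and PDA 106 FPKM for nop56, both below every fir wood library. The gene utp4 (A04260, chosen after its values were seen), of the complex that cleaves the small-subunit RNA precursor, had 34.8, 68.1 and 45.5 FPKM against 4.97, 6.33 and 3.11 FPKM (3.11 ± 0.34, limma, adjusted p = 0.0026). The 2 pol5 genes (chosen after their values were seen), described as rDNA transcription regulators, were stable too, A13016 with 20.3, 40.5 and 29.9 FPKM against 3.84, 4.18 and 2.08 FPKM (2.82 ± 0.34, limma, adjusted p = 0.0034) and A06099 with 2.43 ± 0.39 (limma, adjusted p = 0.0072).

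Of 86 cytosolic ribosomal proteins 51 were higher on poplar wood and 0 lower, with a median of 1.25. After median-of-ratios scaling 22 were higher and 1 lower, without fir wood replicate 1 there were 0 calls, without that library and poplar wood replicate 1 there were 74, and none was stable. RPL19A (A04308) had 902, 1488 and 1434 FPKM on poplar wood and 467, 397 and 495 FPKM on fir wood (1.46 ± 0.28, limma, adjusted p = 0.012, lost without poplar wood replicate 2 or any 1 fir wood library at 1.33 to 1.69), while rice straw averaged 1210 FPKM and PDA 1035 FPKM. Thus fir wood was the low medium for RPL19A, unlike nop56, for which poplar wood was the high one. Summed over the list, ribosomal protein FPKM were 18874, 37090 and 35861 on poplar wood and 12432, 10206 and 14459 on fir wood, so poplar wood replicate 1 lay between the rest of its group and fir wood. The part of that library in the counts was not tested. Mitochondrial ribosomal proteins (24 of 64 higher, 0 lower, median 1.08) and spliceosome genes (42 of 113 higher, 0 lower, median 0.88) gave the same direction, with 9 and 14 calls higher and 0 lower after scaling. Without fir wood replicate 1 there were 0 and 3 calls, and 0 and 3 were stable. MRPL1 (A04683) had 158, 226 and 371 FPKM against 89.9, 76.6 and 95.7 FPKM (1.43 ± 0.34, limma, adjusted p = 0.022), and the splicing factor srp2 (A15825) 186, 364 and 621 FPKM against 119.7, 115 and 116 FPKM (1.56 ± 0.42, limma, adjusted p = 0.033). Both calls were lost when poplar wood replicate 2 or any fir wood library was left out, with fold changes of 1.11 to 1.72 and 1.15 to 2.01.

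**Figure D4:**
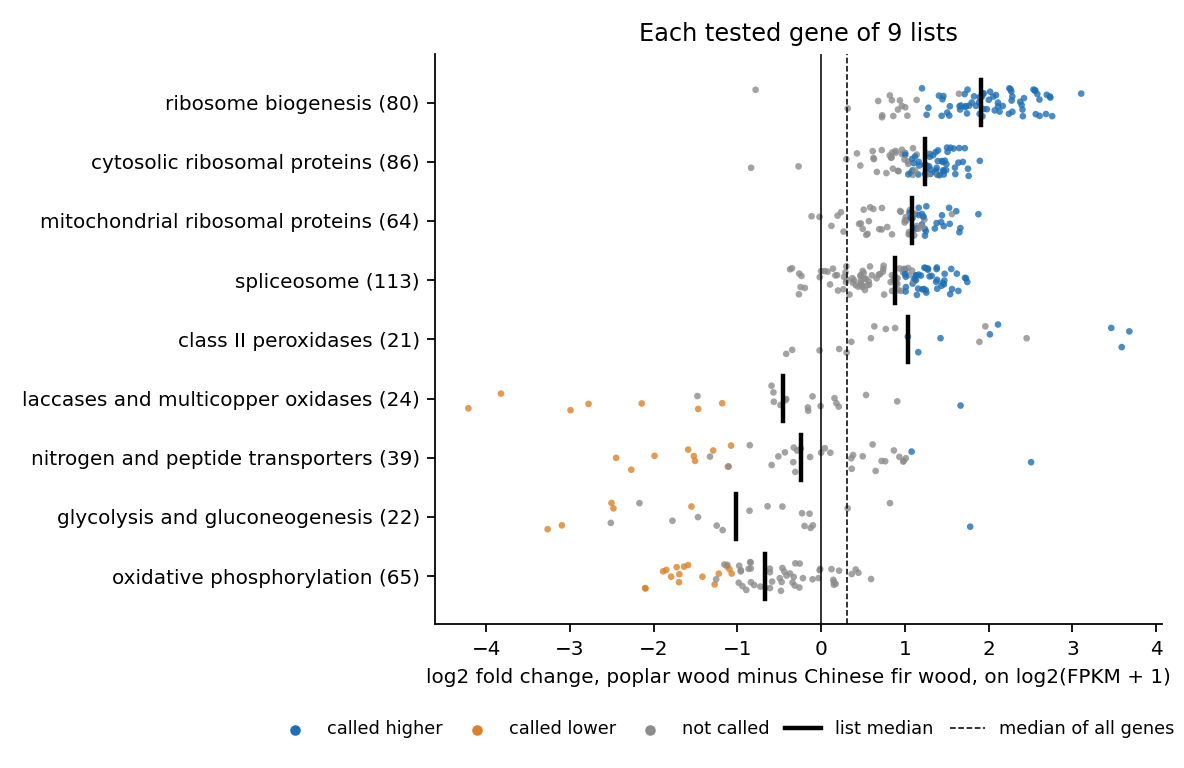
Log2 fold change of each tested gene in 9 lists, coloured by call, with the list median (thick bar) and the median of all genes, 0.31 (dashed line). The median of ribosome biogenesis (1.91) lies right of the dashed line, and those of glycolysis (-1.02) and oxidative phosphorylation (-0.67) lie left of it, with single members such as gpm1 (1.78) on the other side.

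Lists of energy metabolism had calls in both directions. Of 65 tested oxidative phosphorylation genes, the respiratory chain and ATP synthase of mitochondria, 16 were lower on poplar wood and 0 higher, or 33 and 0 after median-of-ratios scaling, with a median of -0.67. Of these 16, 7 were among 13 tested genes described as ATP synthase subunit f. Cytochrome c oxidase subunit cox12 (A01679) had 307, 285 and 394 FPKM on poplar wood and 1208, 988 and 1214 FPKM on fir wood, a stable call (-1.79 ± 0.25, limma, adjusted p = 0.0048). Rice straw averaged 884 FPKM and PDA 444 FPKM, between the woods. Of the 16 calls 2 were stable, the count also found without fir wood replicate 1, and without fir wood replicate 1 and poplar wood replicate 1 there were 7, all lower. Summed FPKM of the list were 5195, 7566 and 10379 on poplar wood and 14161, 10128 and 17346 on fir wood, so that poplar wood replicate 3 and fir wood replicate 2 met.

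Glycolysis and gluconeogenesis had 5 of 22 genes lower and 1 higher, or 10 and 1 after scaling, with a median of -1.02. Leaving out fir wood replicate 1 gave 1 and 1. The most abundant lower gene, phosphoglucomutase pgmB (A05383), had 38.5, 74.1 and 176 FPKM on poplar wood and 456, 555 and 358 FPKM on fir wood (-2.48 ± 0.52, limma, adjusted p = 0.015), and lost its call without poplar wood replicate 2 or any fir wood library at fold changes of -3.05 to -1.97. Glucose-6-phosphate isomerase gpi1 (A04960, chosen after its values were seen) was the stable lower call, with 3.38, 3.38 and 5.45 FPKM against 29.0, 23.6 and 29.6 FPKM (-2.51 ± 0.27, limma, adjusted p = 0.0022). The higher one, phosphoglycerate mutase gpm1 (A03180), had 20.8, 27.8 and 28.9 FPKM against 7.70, 7.04 and 5.65 FPKM (1.78 ± 0.25, limma, adjusted p = 0.0052). In the pentose phosphate list 5 of 19 were lower and 0 higher, the phosphoketolases included, and in the tricarboxylic acid cycle 3 of 31 and 0. Without fir wood replicate 1 the first list held 2 lower calls and the second 0. The glyoxylate, oxalate and formate list had 3 higher calls, FDH1 included, and 1 lower among 13 genes, or 2 and 2 after scaling. With fir wood replicate 1 omitted, the counts were 1 and 0. Its lower member, isocitrate lyase ICL1 (A09090), which with malate synthase bypasses the decarboxylations of that cycle, had 252, 991 and 586 FPKM on poplar wood and 1830, 2284 and 1381 FPKM on fir wood (-1.76 ± 0.49, limma, adjusted p = 0.037). Its call was lost without any 1 fir wood library or poplar wood replicate 3, at fold changes of -2.22 to -1.23. A second ICL1 gene (A19027, chosen after its values were seen) was higher on poplar wood at far lower levels, 3.34 to 5.04 FPKM against 0.776 to 1.24 FPKM (1.37 ± 0.23, limma, adjusted p = 0.0077). The A19027 call was lost without fir wood replicate 1 at fold changes of 1.25 to 1.49. Beta-oxidation of fatty acids held 1 higher and 1 lower call among 34 genes, and sterol and isoprenoid synthesis 3 and 1 among 35, and both held 0 without fir wood replicate 1.

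**Figure D5:**
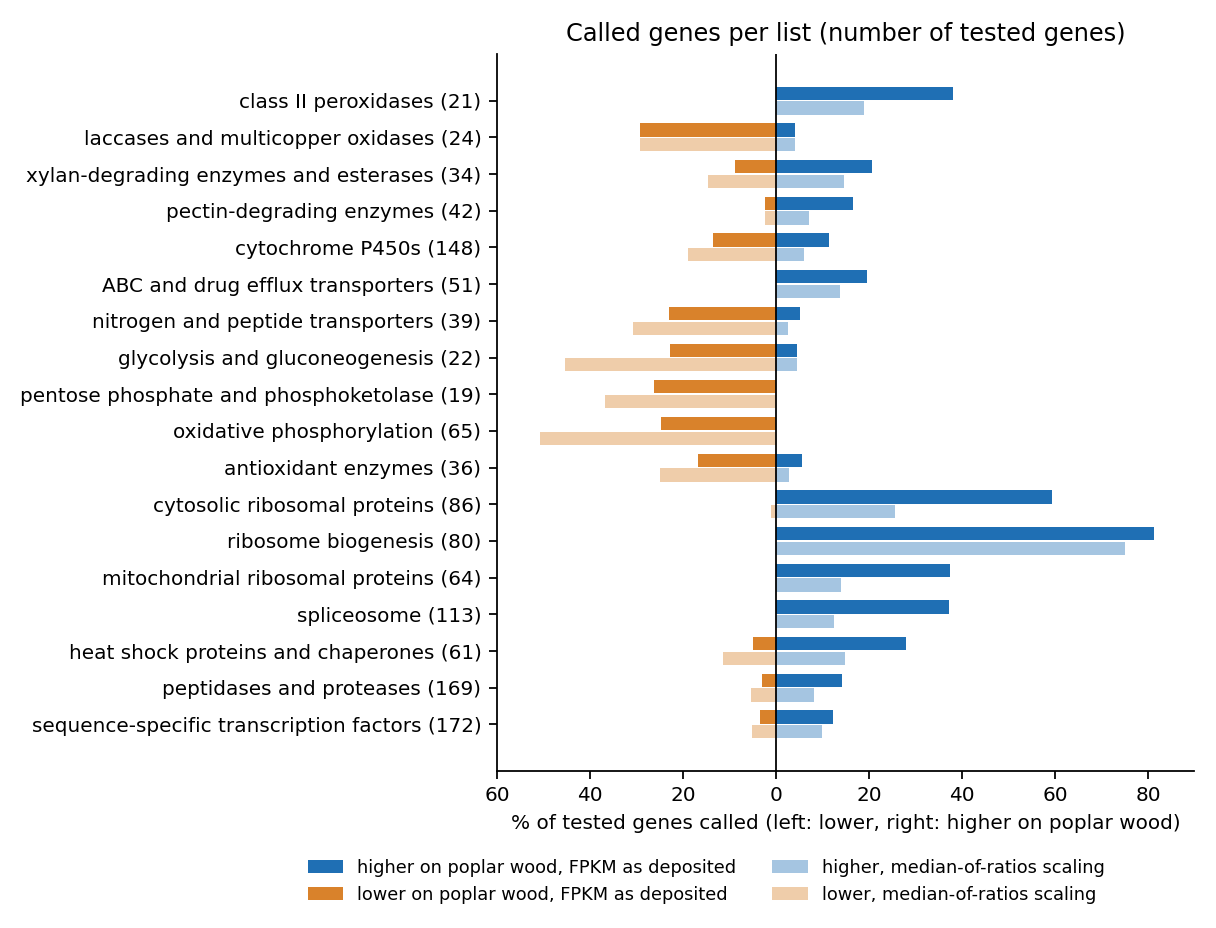
Share of tested genes called higher (right) and lower (left) on poplar wood in 18 lists, on the FPKM as deposited (dark) and after median-of-ratios scaling (pale). Ribosome biogenesis stays one-sided on both scales (65 and 60 of 80), and oxidative phosphorylation goes from 16 to 33 of 65 lower.

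Of 61 heat shock proteins and chaperones 17 were higher and 3 lower, or 9 and 7 after scaling, with a median of 0.99. Omitting fir wood replicate 1 left 1 higher and 2 lower, and the same numbers were stable. The 3 lower ones and 6 of the higher ones were among 13 genes described as the small chaperone hsp16. The hsp16 gene A09813 had 6.58, 4.66 and 2.46 FPKM on poplar wood and 102, 58.9 and 131 FPKM on fir wood (-4.14 ± 0.40, limma, adjusted p = 0.0018), whereas A00935 (chosen after its values were seen) had 245, 119 and 105 FPKM against 18.7, 31.1 and 17.5 FPKM (2.69 ± 0.39, limma, adjusted p = 0.0053). Both were stable and both were higher on rice straw, at 542 and 965 FPKM on average, than on either wood. The abundant chaperone sks2 (A12955), which sits on ribosomes, had 582, 1121 and 1326 FPKM against 300.2, 282 and 303 FPKM (1.69 ± 0.34, limma, adjusted p = 0.014). The sks2 call was lost without poplar wood replicate 2 or any 1 fir wood library at 1.45 to 2.04. Of 36 antioxidant enzymes 2 were higher and 6 lower, or 1 and 9 after scaling. Omitting fir wood replicate 1 left 0 and 3. Glutaredoxin GRX1 (A04745), which reduces protein disulphides, had 123, 155 and 126 FPKM on poplar wood and 416, 516 and 414 FPKM on fir wood (-1.73 ± 0.24, limma, adjusted p = 0.0046), and peroxiredoxin tpx1 (A10538, chosen after its values were seen) had 10, 12.6 and 17.9 FPKM against 219.9, 94.5 and 349 FPKM (-3.78 ± 0.48, limma, adjusted p = 0.0038). Each call of GRX1 and tpx1 was stable.

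In the cell wall lists, synthesis had 3 higher and 5 lower calls among 46 genes, or 0 and 7 after scaling. Without fir wood replicate 1 the counts were 0 and 3. Glutamine-fructose-6-phosphate aminotransferase GFA1 (A09932), the entry step to chitin precursors, had 619, 462 and 211 FPKM on poplar wood and 1992, 2190 and 1806 FPKM on fir wood, a stable call (-2.34 ± 0.40, limma, adjusted p = 0.0088). Rice straw averaged 923 FPKM and PDA 886 FPKM, so each wood lay on its own side of them. Chitin synthase CHS8 (A16977) had 81.2, 81.7 and 67.2 FPKM against 36.6, 39.7 and 34.2 FPKM (1.04 ± 0.23, limma, adjusted p = 0.017), but its change fell to 0.68 after median-of-ratios scaling and was not called there, nor without poplar wood replicate 1 or 2 or any fir wood library. Enzymes that cut fungal chitin and glucan had 7 higher and 2 lower among 44, or 6 and 7 after scaling. The counts without fir wood replicate 1 were 2 and 0. The beta-glucanase btgC (A01543) was the most abundant higher one, with 118, 77.8 and 92.6 FPKM against 13.2, 17.4 and 8.72 FPKM (2.81 ± 0.31, limma, adjusted p = 0.0026), and was stable. Hydrophobins, small proteins that coat aerial hyphae, had 4 of 16 higher and 0 lower, or 2 and 0 after scaling and 0 and 0 without fir wood replicate 1, and none was stable.

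Pheromone receptors, by which compatible mycelia of basidiomycetes recognise each other, had 12 higher and 5 lower calls among 82 tested genes. After scaling there were 8 and 8, and the list median was 0.18. Shares of all genes were 14.3% higher and 5.71% lower, or 8.02% and 9.75% after scaling, so the list was near the background. Leaving out fir wood replicate 1 gave 6 and 2. BAR2 (A06003) had 16.5, 62.2 and 67.1 FPKM on poplar wood and 3.09, 1.61 and 2.06 FPKM on fir wood (3.72 ± 0.53, limma, adjusted p = 0.0050). BAR3 (A15032) had 2.80, 2.38 and 0.716 FPKM against 26.0, 33.9 and 20.8 FPKM (-3.29 ± 0.37, limma, adjusted p = 0.0027). The 2 receptors thus had opposite woods, both with stable calls, and both averaged under 5 FPKM on rice straw and PDA. The receptor PRA1 (A10316, chosen after its values were seen), related to a smut fungus receptor, had 50.2, 58.1 and 78.6 FPKM against 5.96, 5.33 and 6.74 FPKM (3.16 ± 0.26, limma, adjusted p = 0.0010).

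Secreted and intracellular peptidases had 24 higher and 5 lower calls among 169 tested genes, or 14 and 9 after scaling. Their median was 0.31, the same as that of all genes, and the share of higher calls was near the background (14.3%, or 8.02% after scaling). With fir wood replicate 1 omitted, the counts were 5 and 3. Serine carboxypeptidase ARB_06414 (A03363) was the most abundant higher one, with 301, 269.9 and 160.1 FPKM against 78.4, 107 and 44.7 FPKM (1.69 ± 0.39, limma, adjusted p = 0.021), and it was not called after scaling (limma, adjusted p = 0.058), nor without poplar wood replicate 2 or fir wood replicates 1 or 3 (1.35 to 1.97). The protease activator prtT, a transcription factor of extracellular protease genes in Aspergillus, was higher in 2 genes chosen after their values were seen, A15489 with 34.2, 49.7 and 33.4 FPKM against 3.39, 3.87 and 4.28 FPKM (3.03 ± 0.26, limma, adjusted p = 0.0011) and A15557 with 2.70 ± 0.25 (limma, adjusted p = 0.0015). By gene number these lie 3 places after the 2 cnsP genes, A15486 and A15554, but no source used here says whether the numbers follow the genome. Among all 172 sequence-specific transcription factors 21 were higher and 6 lower, beside 14.3% and 5.71% of all genes. After scaling 17 were higher and 9 lower. Omitting fir wood replicate 1 left 7 and 2. The C2H2 factor dvrA (A06378) was the most abundant higher one, with 378, 289.6 and 394 FPKM against 132, 111 and 161 FPKM (1.39 ± 0.26, limma, adjusted p = 0.011). The dvrA call was lost without fir wood replicates 1 or 2 at 1.26 to 1.53. Both CTF1-alpha genes (chosen after their values were seen), named after a cutinase regulator of Fusarium, were lower, A06688 with 20.6, 15.6 and 15.6 FPKM against 62.6, 57.6 and 65.7 FPKM (-1.79 ± 0.23, limma, adjusted p = 0.0040) and A09076 with -1.73 ± 0.22 (limma, adjusted p = 0.0039). The prtT and CTF1-alpha calls were stable.

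Counts of the remaining lists are to be read beside 14.3% of all genes higher and 5.71% lower. After median-of-ratios scaling these shares were 8.02% and 9.75%, and without fir wood replicate 1 they were 3.13% and 1.81%. Cell cycle and DNA replication genes had 14 higher and 4 lower among 142, protein kinases 13 and 4 among 158, proteasome and ubiquitin genes 8 and 3 among 110, the secretory pathway 9 and 0 among 106, lipases and cutinases 8 and 3 among 55, flavin monooxygenases and related enzymes 8 and 6 among 82, autophagy 1 and 0 among 19, sesquiterpene synthases 0 and 1 among 7, and alternative respiration 0 and 1 among 6. Without fir wood replicate 1 the cell cycle list held 1 higher and 1 lower call, proteasome and ubiquitin genes held 1 lower call, and the kinase, secretory, lipase, flavin monooxygenase, autophagy, sesquiterpene and alternative respiration lists held 0. After median-of-ratios scaling the secretory list turned to 0 higher and 3 lower, and the lipases to 1 and 5. Histone H3.2 (A18375, 577, 614 and 422 FPKM against 177, 212 and 169.5 FPKM, 1.51 ± 0.26, limma, adjusted p = 0.0082) lost its call without fir wood replicates 1 or 3, at fold changes of 1.41 to 1.68. The calcium-dependent kinase cmkB (A10564) had 1555, 1104 and 667 FPKM on poplar wood and 3162, 3260 and 2808 FPKM on fir wood (-1.55 ± 0.34, limma, adjusted p = 0.018). The cmkB call was lost without poplar wood replicate 2 or any 1 fir wood library at -1.84 to -1.23.

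Genes without any description held some of the widest differences. Of 5818 tested genes of this kind 699 were higher and 360 lower on poplar wood. Beside 14.3% and 5.71% of all genes, these shares were near the background. Gene A05787 had 93.7, 76.1 and 20 FPKM on poplar wood and 14376, 10601 and 17371 FPKM on fir wood, with a log2 fold change of -8.01 ± 0.56 (limma, adjusted p = 0.00081), the widest among the genes named here, and averages of 1755 FPKM on rice straw and 109 FPKM on PDA. Gene A04825 had 1.33, 1.36 and 0.622 FPKM against 197, 139 and 276 FPKM (-6.57 ± 0.32, limma, adjusted p = 0.00025). In the other direction A02840 had 352, 131 and 81.0 FPKM on poplar wood against 2.29, 2.02 and 1.86 FPKM on fir wood (5.68 ± 0.50, limma, adjusted p = 0.0012), and A12212 had 86.7, 91.0 and 80.0 FPKM against 0.979, 1.56 and 0.637 FPKM (5.42 ± 0.26, limma, adjusted p = 0.00025). Rice straw was high for A02840, at 109 FPKM on average, but not for A12212, at 0.985 FPKM. All 4 calls were stable. Of the 10 genes with the highest mean on fir wood 9 had no description and 8 were called lower on poplar wood. Of the 10 highest on poplar wood 5 had none and 2 were called higher. Ranking by the mean on a wood favours genes that are higher on that wood, so these call counts are partly set by the choice. Elongation factor TEF1 was among those called higher (A18418, 2356, 5291 and 6257 FPKM against 1592, 1320 and 1852 FPKM, 1.44 ± 0.40, limma, adjusted p = 0.037). The TEF1 call was lost after median-of-ratios scaling and without poplar wood replicate 2 or 3 or any fir wood library (1.17 to 1.87).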

How the data were processed

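Poly(A) RNA of 12 libraries was sequenced, 3 per medium, and the 6 wood libraries were compared here. The values deposited by the authors are FPKM of 16059 genes with symbols and descriptions; per the submitters' processing notes fastp, HISAT2, HTSeq and DESeq2 were used, with versions, parameters and roles not listed, and no source used here names the genome build. Dividing out length and depth gave whole reads for 16059 of 16059 genes (tolerance 0.001 reads), which supplied the depths and a voom alternative.

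The 13265 member genes were tested with limma 3.58.1 in R 4.3.3 (eBayes with a mean-variance trend) on log2(FPKM + 1), in a fit of the 6 libraries with no covariate. A call took an adjusted p (Benjamini-Hochberg, all members) below 0.05 and a log2 fold change of 1 or more in size. The p-values measure the spread between these cultures. The code was tested on simulated data.

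Gene lists came from word patterns in the descriptions. The comparison, its members and the lists were chosen with earlier results of these data known, and some patterns were corrected after the descriptions were read. Named genes were the 12 largest rises and falls with a description and the 2 largest each way without one. These were taken among calls with non-overlapping groups and 10 FPKM or more on average in the higher wood. Added without these limits were the most abundant call per list and direction. The most abundant member of each wood decay list was also added, whether called or not. Others are marked as chosen after their values were seen. Alternatives were other pseudocounts, filters, scalings, fits and omitted libraries.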

Additional observations from a re-analysis of the deposited data

How the results depend on the processing

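Of 2659 calls, 1902 were higher and 757 lower on poplar wood. A pseudocount of 5 gave 1679 calls with 1113 higher. Median-of-ratios scaling gave 1064 higher and 1293 lower, quantile normalisation 1118 and 1179. Array weights gave 4039 calls with 2969 higher. They gave fir wood replicate 1 a weight of 264.1 and the other libraries 0.0882 to 1.279. On the fir wood side that fit thus rests almost wholly on the library whose independence cannot be told. Leaving out 1 library gave from 655 (without fir wood replicate 1) to 4130 calls (without poplar wood replicate 1), with 415 to 3129 higher and 240 to 1001 lower, and omitting both of those libraries, an alternative chosen after seeing the data, gave 3562. The cause of these differences was not tested; an omission also leaves fewer samples. The remaining fits gave 2311 to 3359 calls.

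Whether the replicate numbers pair the libraries cannot be told from their values. Deviations of same-numbered libraries from their group means correlated at -0.0432, -0.0566 and 0.333. Since fir wood replicate 1 lay close to a combination of replicates 2 and 3, the deviations of fir wood replicates 2 and 3 were near mirror images. With poplar wood replicate 1 they correlated at 0.344 and -0.332. A fit with the replicate block gave 2964 calls, of which 2598 were shared.

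Of 103 genes with a call that were picked by the naming rules, 89 were called after median-of-ratios scaling, 92 at pseudocount 5 and 51 to 99 with 1 library left out, and 0 reversed in any setting run. Genes marked as chosen after their values were seen were not in this count. All 103 were picked as calls in these same libraries, so the lack of reversals is partly set by the choice. Poplar wood had 3 libraries with a median SD of 0.471, which limits small changes. At 1 FPKM a gene of median coding length rests on 33.1 to 44.0 reads per wood library, and a shorter gene on fewer.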

Other observations

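Several groups were put together after their values were seen, so they carry no test as groups. The 4 tested UTP-glucose-1-phosphate uridylyltransferase genes, whose enzyme makes UDP-glucose for glucans, were all lower on poplar wood with stable calls and a median log2 fold change of -2.87. The most abundant, fyu1 (A07161), had 145, 61.6 and 72.5 FPKM on poplar wood and 674, 720.4 and 656 FPKM on fir wood (-2.96 ± 0.35, limma, adjusted p = 0.0031). Rice straw averaged 159.9 FPKM and PDA 114 FPKM, so fir wood was the high medium. Of 9 heme synthesis genes 3 were lower and 1 higher, and the lower ones were stable. These were both copies of 5-aminolevulinate synthase hem1, the first step of the pathway (A03111, 37, 41.2 and 23.6 FPKM against 269.6, 211 and 324 FPKM, -2.96 ± 0.30, limma, adjusted p = 0.0020; A08438, -3.02 ± 0.32, limma, adjusted p = 0.0022), and coproporphyrinogen oxidase HEM13 (A04228, -2.85 ± 0.40, limma, adjusted p = 0.0047).

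On the poplar wood side, 27 of 60 translation initiation and elongation factors were higher and 0 lower, or 19 and 0 after median-of-ratios scaling. TIF6 (A01709), which keeps ribosomal subunits apart until maturation, had 266, 699 and 846 FPKM on poplar wood and 53.8, 52.6 and 53.5 FPKM on fir wood (3.32 ± 0.43, limma, adjusted p = 0.0039), while PDA averaged 603 FPKM. Of 54 ATP-dependent RNA helicases 29 were higher and 0 lower, 11 of them stable. Amino acid synthesis had 17 of 49 higher and 2 lower, among them homocitrate synthase lys1 (A03396), the entry to fungal lysine synthesis, with 45.8, 112 and 114 FPKM against 10.1, 9.34 and 10.3 FPKM (2.96 ± 0.38, limma, adjusted p = 0.0039).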
